A study of Mus musculus with 6 samples.

Results

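The genes described here lie on the stretch of mouse chromosome 6 that runs from its first measured genes to Casp2. They were taken by position: genes of the deposited count table that start upstream of Fam131b (start 42315312, GRCm38) and that had at least 200 counts over the 6 libraries. There were 111 of them among 48440 genes in the table, after 8 genes of the stretch were left out by name. In all, 644 genes start in the stretch, 304 of them had any count and 119 reached 200 counts. The first was Vps50 (start 3498382) and the last Casp2 (42264985 to 42282508). The limit was chosen on measured values, the RNA levels of 2 of these same 6 libraries, so the differences between those 2 libraries and the rest over the stretch are given as a description, with no test.

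The libraries hold polyadenylated RNA of mouse induced pluripotent stem cells (iPSCs), 6 clones in all, grown out of a male iPSC line that was reprogrammed from wild-type embryonic fibroblasts. The 3 knockout clones (14, 30 and 33, called replicates 1 to 3) carry a Cas9 mutation of both Tet1 alleles (mut/mut). The other 3 clones (49, 51 and 52, again replicates 1 to 3) are labelled non-targeted. Tet1 encodes an enzyme that oxidises 5-methylcytosine. All 6 share a strain entry that names the allele B6- Tet1tm1Kohx together with B6;CBA-Tg(Pou5f1-EGFP)2Mnn/J, and the genotype wt/wt;GFP/wt before editing. The transgene makes green fluorescent protein under the Pou5f1 promoter. Per the labels, all went through 14 passages in KSR medium, transfection with a donor oligonucleotide and Cas9 loaded with a guide against Tet1, 12 h with a repair enhancer, colony picking and 4 more passages, with expansion on mouse embryonic fibroblast (MEF) feeders that were removed before RNA extraction. The labels give this treatment in the same words for both groups. Each library is 1 clone, so a p-value measures the spread between clones of that line.

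Genes that sit side by side on a chromosome usually have their own promoters and enhancers and follow the needs of their own pathways, so the levels of neighbours in a cell type differ widely and can change independently. The number of DNA copies and the chromatin of the stretch were not measured in these libraries. The genes of the stretch serve unrelated housekeeping and tissue functions, among them ubiquitin transfer, splicing, nuclear pores, mitochondrial transport, the actin cytoskeleton and Hedgehog signalling.

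Total counts were between 11937909 and 16189554 per library. Levels are given as CPM, a gene's counts relative to the size of its library, scaled between libraries with TMM factors of 0.9874 to 1.0191. Tet1, the edited gene, had 365, 231 and 288 CPM for knockout replicates 1, 2 and 3, against 1155, 965 and 1032 CPM for the non-targeted replicates, so the edited gene separated the groups as labelled. Its log2 fold change was -1.84 ± 0.16 (SE), with an edgeR adjusted p of 0.0703 and a DESeq2 adjusted p of 9.06e-20. Of 11 markers of pluripotent cells 10 were detected and Sox2 is listed at 0, and they summed to 3980 and 3542 CPM for knockout replicates 2 and 3, against 5133 CPM for knockout replicate 1 and 5358, 4875 and 5316 CPM for the non-targeted clones. Their median log2 difference from the other 4 clones was -0.32 and -0.48 in knockout replicates 2 and 3. In both, 1 marker, Lin28a, was above the mean of the other 4 clones, at 589 and 738 CPM. Nanog, at 283 and 112 CPM in these 2 clones, lies on chromosome 6 itself, and its part in the sum was not tested. None of the fibroblast markers below lies on chromosome 6. Of 28 fibroblast markers none was at 0, and they summed to 2368 and 3315 CPM for knockout replicates 2 and 3, against 2777 CPM for knockout replicate 1 and 2549, 2266 and 2611 CPM for the non-targeted clones. Taken gene by gene, the median fibroblast marker was 0.60 and 1.64 higher on the log2 scale in knockout replicates 2 and 3 than in the other 4 clones. In such bulk libraries, fewer cells of a type and less RNA per cell cannot be told apart.

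Knockout replicates 2 and 3 had less RNA than the other 4 clones, knockout replicate 1 and the 3 non-targeted clones, from most genes of the stretch. The summed level of the 111 genes was 6649 and 6725 CPM for knockout replicates 2 and 3, against 9786 CPM for knockout replicate 1 and 9743, 9423 and 9358 CPM for the non-targeted clones. The 2 low clones lay close to each other and the 4 high clones lay close to each other, with a wide gap between the sets. As a share of all counts, the genes took 0.674% and 0.685% in the 2 low clones, against 0.978% in knockout replicate 1 and 0.963%, 0.935% and 0.924% in the non-targeted clones.

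The same was seen gene by gene. The difference used below is the log2 CPM of a library minus the mean log2 CPM of the other 4 clones. Its median over the 111 genes was -0.50 in knockout replicate 2, a level 70.6% of that in the other 4 clones, and -0.46 in knockout replicate 3, a level of 72.5%. For each of the other 4 clones the same median, taken against its remaining 3 clones, was 0.05 in knockout replicate 1 and -0.01, -0.01 and -0.07 in the non-targeted clones. Both low clones lay below all 4 others for 72 genes (25.9% of all genes with 200 counts or more lay so) and above all 4 for 14 (24.5% of all genes). For the remaining 25 genes the clones overlapped. Because the limit of the stretch was chosen on this contrast, nothing is read from these counts.

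**Figure D1:**
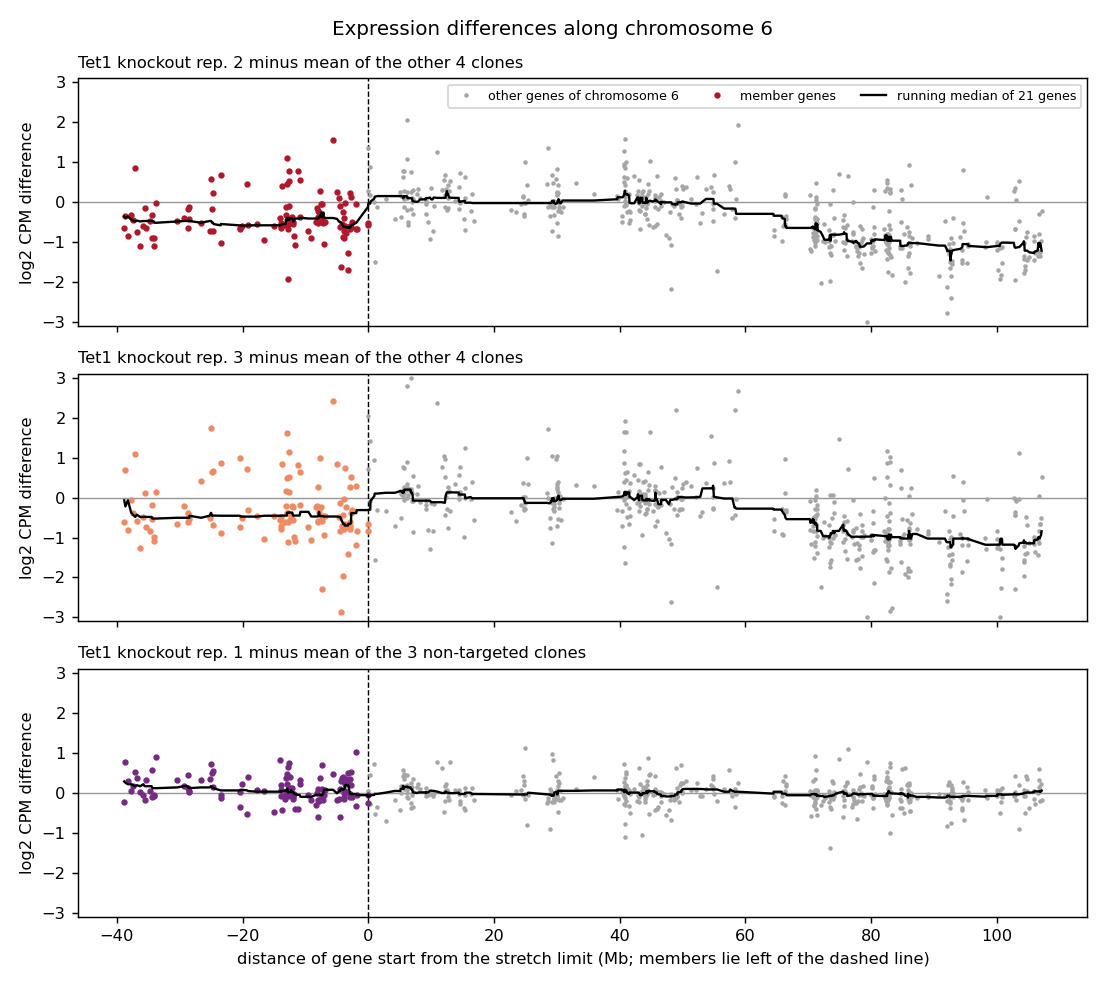
Each point is a gene of chromosome 6 with at least 200 counts, placed by its distance from the limit before Fam131b in megabases (horizontal axis), with its log2 CPM in knockout replicates 2 and 3 minus the mean of the other 4 clones and, in the lowest panel, in knockout replicate 1 minus the mean of the non-targeted clones (vertical axis; points beyond 3 in either direction are drawn at 3). Left of the limit the running median of 21 genes lies below 0 in knockout replicates 2 and 3, whose medians over the 111 genes are -0.50 and -0.46, and between -0.10 and 0.29 in knockout replicate 1, with the higher values at the start of the chromosome.

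The gene with the most counts of the stretch, Mkrn1, shows the common pattern. Mkrn1 encodes a RING-type E3 ubiquitin ligase. It had 687 and 672 CPM for knockout replicates 2 and 3, against 1017 CPM for knockout replicate 1 and 1083, 959 and 1081 CPM for the non-targeted clones. The 2 low clones differed little from each other, and the lowest of the other 4 was well above both. The other 4 clones averaged 1035 ± 59.2 CPM (SD, n = 4), and the differences of the 2 low clones from them were -0.59 and -0.62 on the log2 scale. Casp2, an initiator caspase and the last gene of the stretch, had 45.3 and 36.6 CPM for knockout replicates 2 and 3, against 63.3 CPM for knockout replicate 1 and 65.3, 69.8 and 61.6 CPM for the non-targeted clones. Here too the 2 clones lay below all the others, with differences of -0.52 and -0.82.

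The promoters of 4 genes are printed below because they stand for the kinds of behaviour along the stretch: Mkrn1 for the common shift, Atp6v0a4 for the deepest difference, Flnc for genes that were higher in the 2 clones, and Casp2 for the end of the stretch. They run from 250 bases before to 50 bases after the start that RefSeq gives on GRCm38.p6. The capitals mark the dinucleotide CG, the substrate of mammalian DNA methylation, searched as the letters CG, which read the same on both strands. The Mkrn1 promoter (chr6:39420320-39420619, minus strand) holds 23 of them, that of Atp6v0a4 (chr6:38124537-38124836, minus strand) 1, that of Flnc (chr6:29433006-29433305, plus strand) 30 and that of Casp2 (chr6:42264735-42265034, plus strand) 26.
Mkrn1: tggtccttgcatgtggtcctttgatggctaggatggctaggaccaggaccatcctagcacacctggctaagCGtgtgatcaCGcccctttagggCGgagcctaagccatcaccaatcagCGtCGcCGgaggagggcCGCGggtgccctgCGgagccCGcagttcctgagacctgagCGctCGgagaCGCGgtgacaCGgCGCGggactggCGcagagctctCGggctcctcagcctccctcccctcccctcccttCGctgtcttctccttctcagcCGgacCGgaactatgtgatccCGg
Atp6v0a4: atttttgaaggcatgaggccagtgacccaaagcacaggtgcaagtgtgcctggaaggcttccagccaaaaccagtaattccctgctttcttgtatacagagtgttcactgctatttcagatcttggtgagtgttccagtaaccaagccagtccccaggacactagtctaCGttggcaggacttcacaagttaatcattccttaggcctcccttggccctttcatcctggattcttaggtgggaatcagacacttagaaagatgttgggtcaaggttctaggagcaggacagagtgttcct
Flnc: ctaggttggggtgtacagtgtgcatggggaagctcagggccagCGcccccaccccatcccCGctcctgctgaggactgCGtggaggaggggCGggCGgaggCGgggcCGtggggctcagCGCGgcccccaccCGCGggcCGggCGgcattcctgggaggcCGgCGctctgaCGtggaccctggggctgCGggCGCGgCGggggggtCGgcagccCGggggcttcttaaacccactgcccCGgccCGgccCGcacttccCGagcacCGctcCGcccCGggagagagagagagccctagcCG
Casp2: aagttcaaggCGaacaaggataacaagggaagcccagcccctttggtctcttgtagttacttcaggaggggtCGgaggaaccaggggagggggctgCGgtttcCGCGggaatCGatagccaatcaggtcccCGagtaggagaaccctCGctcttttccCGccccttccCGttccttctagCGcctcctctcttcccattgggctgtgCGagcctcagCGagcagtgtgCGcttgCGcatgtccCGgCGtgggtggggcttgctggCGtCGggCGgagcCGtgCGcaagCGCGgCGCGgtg

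Of the 111 genes, 100 matched a RefSeq promoter within 2000 bases of an annotated start. Every one of the 100 held at least 1 CG, as did 94.6% of 32851 promoters of the genome, of expressed and silent genes alike. The median number was 19.5, against 7 over all promoters. The lowest was 1, so the printed Atp6v0a4 promoter is the extreme of the 100 and does not stand for genes with deep differences. Divided near their own median, the 56 with at least 19 had median differences of -0.54 and -0.47 in knockout replicates 2 and 3, and the 44 with fewer had medians of -0.43 and -0.41. The Spearman correlation of the mean difference of these 2 clones was -0.23 with the CG number. With the mean log2 CPM of the other 4 clones, which also enters the difference, it was -0.46. Whether the CG number matters apart from the level of a gene was not tested. The printed pair of Mkrn1 and Casp2, low in both clones, and Flnc, high in both, are all rich in CG.

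The shift was tightest where counts were deepest. Among the 40 genes with at least 5000 counts, the median difference was -0.58 in knockout replicate 2 and -0.60 in knockout replicate 3, levels 66.8% and 65.8% of those in the other 4 clones. Both clones were below all 4 others for 36 of the 40 and above them for 3, and 30.1% and 18.7% of the 3777 genes of that depth on other chromosomes lay so. In 26 of these 40 genes both differences lay between -0.85 and -0.35 (5.67% of the 3777 genes of that depth on other chromosomes). The 37 genes with 1000 to 4999 counts had medians of -0.43 and -0.47, and 26 of them were below the other 4 clones in both and 2 above (24.0% and 25.8% on other chromosomes). The 34 genes with 200 to 999 counts had medians of -0.14 and 0.12, with 10 below and 9 above (18.3% and 31.4% on other chromosomes). The stretch was chosen on these differences, so the shares are given only as the background. On other chromosomes the medians also fell with depth. They were 0.13 and 0.15 there at 200 to 999 counts and -0.02 and -0.06 at 5000 or more. Between these classes the interquartile ranges went from 0.83 and 1.08 to 0.29 and 0.35 on other chromosomes. In the stretch they went from 0.80 and 1.22 to 0.20 and 0.32. Counting error is larger at the low end, and its part in this order with depth was not tested.

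**Figure D2:**
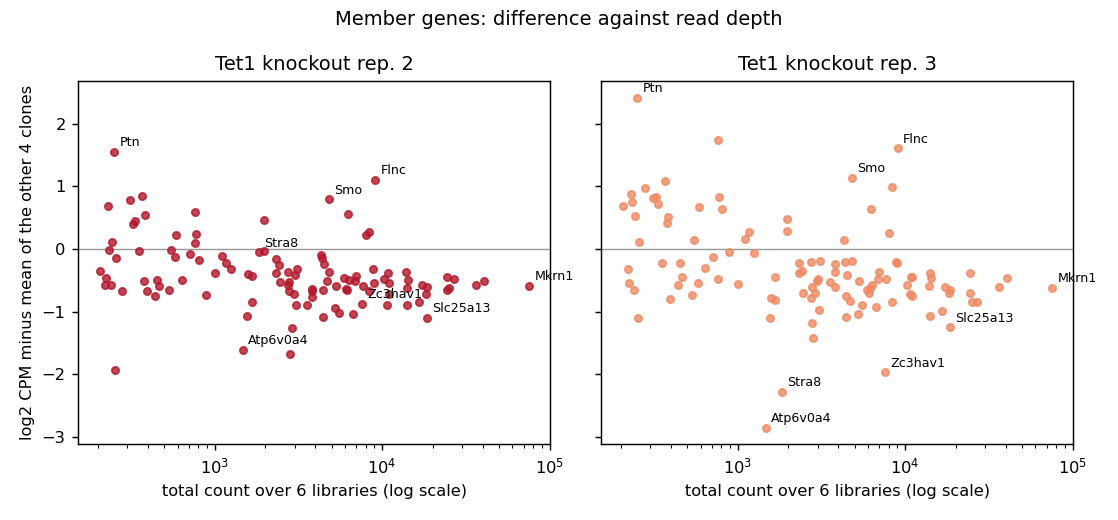
Each point is a gene of the stretch, with its counts summed over the 6 libraries on a log axis and its difference from the other 4 clones (log2 CPM) in knockout replicate 2 or 3. At 5000 counts or more the points gather around -0.58 and -0.60, with a few genes such as Flnc above 0, while at 200 to 999 counts they scatter on both sides of 0.

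Over the 10 genes with the most counts, the differences ran from -0.44 and -0.38 for Calu to -1.10 and -1.25 for Slc25a13, and all 10 were low in both clones. Nup205, a scaffold protein of the nuclear pore, had 381 and 394 CPM for knockout replicates 2 and 3, against 494 CPM for knockout replicate 1 and 538, 570.1 and 577 CPM for the non-targeted clones. Tnpo3, the nuclear import receptor of splicing factors, had 333 and 325 CPM for those 2 knockout clones, against 478 CPM for knockout replicate 1 and 509, 484 and 508 CPM for the non-targeted clones. Both showed a narrow pair below a narrow set of 4, with differences of -0.51 and -0.46 for Nup205 and -0.57 and -0.61 for Tnpo3.

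Snd1, an RNA-binding nuclease-domain protein, had 216 and 209 CPM for those 2 knockout clones, against 328 CPM for knockout replicate 1 and 347, 331 and 354 CPM for the non-targeted clones. Luc7l2, a splicing factor that associates with the U1 particle, had 168 and 162 CPM for those 2 knockout clones, against 262 CPM for knockout replicate 1 and 273, 256 and 235 CPM for the non-targeted clones. Neither overlapped the other clones, and the differences were -0.66 and -0.70 for Snd1 and -0.60 and -0.66 for Luc7l2. Capza2, a subunit of the capping protein of actin filaments, had 155 and 157 CPM for those 2 knockout clones, against 273 CPM for knockout replicate 1 and 268, 259 and 219.9 CPM for the non-targeted clones, differences of -0.71 and -0.70. Calu, a calcium-binding protein of the secretory pathway, had 238 and 249 CPM for those 2 knockout clones, against 366 CPM for knockout replicate 1 and 339.8, 306 and 288 CPM for the non-targeted clones. The gap was narrower for Calu, with non-targeted replicate 3 the nearest to the low pair.

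The lower levels ran along the whole stretch. Divided into 6 consecutive blocks of 18 or 19 genes, the stretch had block medians between -0.38 and -0.61 in knockout replicate 2 and between -0.29 and -0.64 in knockout replicate 3. The lowest block in both was the last, from 1110001J03Rik to Casp2, with medians of -0.61 and -0.64, where 13 of 18 genes lay below the other 4 clones in both and 0 above (25.9% and 24.5% of all genes). The highest was the fourth, from Nrf1 to Cald1, with medians of -0.38 and -0.29. In the first block, from Vps50 to Tmem106b, the medians were -0.48 and -0.52, and 14 of 19 genes lay below the other clones. Genes on the plus strand (55) had medians of -0.51 and -0.46 and those on the minus strand (56) of -0.49 and -0.47.

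At the start of the chromosome, Vps50, a subunit of an endosomal recycling complex, had 53.7 and 55.0 CPM for knockout replicates 2 and 3, against 75.5 CPM for knockout replicate 1 and 90.5, 90.9 and 82.9 CPM for the non-targeted clones. Bet1, a SNARE of transport between endoplasmic reticulum and Golgi, had 13.1 and 13.5 CPM for those 2 knockout clones, against 27.6 CPM for knockout replicate 1 and 24.4, 22.5 and 20.9 CPM for the non-targeted clones. Both were low in the 2 clones with no overlap, with differences of -0.66 and -0.62 for Vps50 and -0.85 and -0.81 for Bet1. Between them lies Calcr, the calcitonin receptor, which had 1.73 and 3.73 CPM for those 2 knockout clones, against 3.44 CPM for knockout replicate 1 and 1.45, 2.55 and 2.01 CPM for the non-targeted clones. Calcr, with 206 counts in all, did not follow its neighbours, as knockout replicate 3 was the highest library and knockout replicate 2 was among the lowest.

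Before the far end lie Ssbp1, the single-stranded DNA-binding protein of mitochondria, and Gstk1, a glutathione transferase. Ssbp1 had 73.4 and 65.0 CPM for knockout replicates 2 and 3, against 114 CPM for knockout replicate 1 and 115, 113 and 127 CPM for the non-targeted clones, a clear gap with differences of -0.67 and -0.85. Gstk1, with 239 counts, had 2.06 and 1.94 CPM for those 2 knockout clones, against 2.75 CPM for knockout replicate 1 and 2.74, 4.98 and 2.57 CPM for the non-targeted clones. Its 2 low clones were again the lowest, by a small margin. Beyond Casp2 the pattern stopped. Fam131b, the next gene, had 5.37 and 8.76 CPM for knockout replicates 2 and 3, against 1.99 CPM for knockout replicate 1 and 0.886, 4.30 and 2.08 CPM for the non-targeted clones, differences of 1.35 and 2.04. The 2 knockout clones were above all the others there. Zyx, the focal adhesion protein zyxin, had 161 and 216 CPM in the 2 knockout clones, against 135 CPM for knockout replicate 1 and 106, 156 and 136 CPM for the non-targeted clones, differences of 0.29 and 0.71.

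The differences of each library were also fitted along the chromosome. In knockout replicates 2 and 3 these are the values that set the limit, so the fitted end restates that choice. The 586 genes of chromosome 6 with at least 200 counts were divided into 3 pieces, each of 20 genes or more, so that the summed distance from the piece medians was smallest. In knockout replicates 2 and 3 the first piece ended at Casp2 in both, after 119 genes, with medians of -0.50 and -0.47. The second piece, of 244 genes, had medians of 0.04 and 0.01, and the third, of 223 genes that start beyond 112563642, had medians of -0.97 in both. The start of chromosome 6 was thus lower than the middle and less low than its far end in these 2 clones. In knockout replicate 1 the first piece ended at St7 (start 17692933), with a median of 0.22 over 33 genes. In the non-targeted clones the first piece ended at Ybx3, Ssbp1 and Wbp1 for replicates 1, 2 and 3. Ssbp1, after 117 genes, lies just before Casp2, but the medians on its 2 sides were -0.01 and 0.03, and the medians of all pieces in these clones were between -0.09 and 0.13. Over each of the 19 other chromosomes, taken whole, the median was between -0.05 and 0.05 in knockout replicate 2. In knockout replicate 3 it was between -0.06 and 0.05. A median over a whole chromosome can hide a low stretch, so it is not a like measure for a chosen stretch. On chromosome 14, for example, the first quartile in knockout replicate 2 was -0.46 at a median of -0.05.

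**Figure D3:**
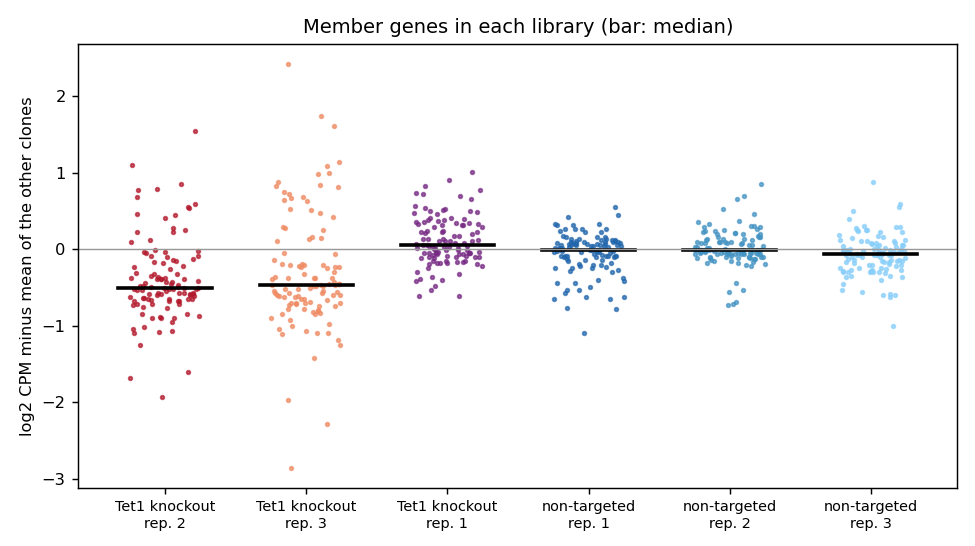
Differences of the 111 genes in each of the 6 libraries (log2 CPM minus the mean of the other 4 clones for knockout replicates 2 and 3, and minus the mean of the remaining 3 of those 4 clones for each of the others); points are genes and the bar is the median. The medians are -0.50 and -0.46 in knockout replicates 2 and 3 and between -0.07 and 0.05 in the other 4 clones.

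For the counts by role that follow, the background is that 25.9% of all genes with 200 counts or more lay below the other 4 clones in both low clones and 24.5% above, and for genes with 5000 counts or more on other chromosomes 30.1% and 18.7%. The difference also went with the level of a gene, as the classes of depth above show, and the lists differ in how abundant their genes are. The 7 genes of RNA processing and translation all lay below, with medians of -0.60 and -0.66. Besides Snd1 and Luc7l2 they include Rbm28, a nucleolar RNA-binding protein, which had 159 and 156 CPM for knockout replicates 2 and 3, against 219 CPM for knockout replicate 1 and 235, 236 and 259 CPM for the non-targeted clones. Of 12 genes for transcription and chromatin, 8 lay below in both and 1 above, with medians of -0.57 and -0.68. Trim24, a chromatin reader and nuclear receptor cofactor, had 228 and 195 CPM for those 2 knockout clones, against 369 CPM for knockout replicate 1 and 362, 341 and 329 CPM for the non-targeted clones. Nrf1, a transcription factor of nuclear-encoded mitochondrial genes, had 109 and 105 CPM for those 2 knockout clones, against 153 CPM for knockout replicate 1 and 142, 136 and 142 CPM for the non-targeted clones. Both showed no overlap, and the gap was narrower for Nrf1, with differences of -0.39 and -0.45, than for Trim24, with -0.62 and -0.84. Ubn2, a component of a histone H3.3 chaperone complex, had differences of -0.89 and -0.72.

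Of 12 genes for membrane traffic, nuclear transport and proton pumps, 11 lay below the other 4 clones in both low clones and 0 above, with medians of -0.51 and -0.47. Nup205, Tnpo3 and Calu belong here. Of 15 genes for metabolism and mitochondria, 11 lay below and 2 above, with medians of -0.48 and -0.60. Asns, asparagine synthetase, had 266 and 207 CPM for knockout replicates 2 and 3, against 383 CPM for knockout replicate 1 and 394, 343 and 366 CPM for the non-targeted clones. Chchd3, a subunit of the complex that shapes mitochondrial cristae, had 94.1 and 92.0 CPM for those 2 knockout clones, against 151 CPM for knockout replicate 1 and 160.2, 153 and 154 CPM for the non-targeted clones. Knockout replicate 3 was below knockout replicate 2 for both, more so for Asns. Akr1b3, aldose reductase, had differences of -0.37 and -0.60.

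Of 6 genes for ubiquitin, proteasome and proteases, 4 lay below in both and 0 above, with medians of -0.50 and -0.53. They are Mkrn1, Casp2, Shfm1, a small subunit of the proteasome lid with differences of -0.59 and -0.48, and Zc3hc1, a zinc-finger protein of the nuclear envelope with -0.49 and -0.57. The list headed DNA replication, telomeres and repair held Pot1a, Rpa3 and Parp12. All 3 lay below in both, with medians of -0.95 and -1.05, the values of Pot1a. Parp12 is described below as an interferon-inducible ADP-ribosyltransferase, so the heading holds for Pot1a and Rpa3 alone. Pot1a, which binds the single-stranded end of telomeres, had 39.6 and 37.0 CPM for knockout replicates 2 and 3, against 78.4 CPM for knockout replicate 1 and 87.6, 71.9 and 69.3 CPM for the non-targeted clones. Rpa3, the small subunit of replication protein A, had 23.5 and 22.3 CPM for those 2 knockout clones, against 43.0 CPM for knockout replicate 1 and 50.4, 46.2 and 37.5 CPM for the non-targeted clones. For both, the low pair was near the level of each other and clear of the other 4 clones.

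The 12 signalling genes were more mixed, with 6 below, 2 above and medians of -0.41 and -0.04. Braf, a kinase of the MAP kinase cascade, had 122 and 143 CPM for knockout replicates 2 and 3, against 208 CPM for knockout replicate 1 and 171, 205 and 171 CPM for the non-targeted clones. Klhdc10, a kelch-domain protein, had 80.4 and 99.7 CPM for those 2 knockout clones, against 108 CPM for knockout replicate 1 and 125, 122 and 113 CPM for the non-targeted clones. Fam3c, a secreted cytokine-like protein, had differences of -0.59 and -0.52. These 3 lay below all other clones in both, though knockout replicate 3 was only a little below for Klhdc10. The 10 genes for cytoskeleton, adhesion and caveolae were divided, with 5 below and 5 above, and medians of -0.08 and 0.07. Below were Capza2, Mtpn and Wasl, an activator of actin branching, with differences of -0.50 and -0.46 for Mtpn and -0.54 and -0.45 for Wasl. Above were Flnc, Cav1, Cald1, Podxl and Tspan33. The lists of roles were drawn up with earlier results of these data known, and the difference between them was not tested.

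**Figure D4:**
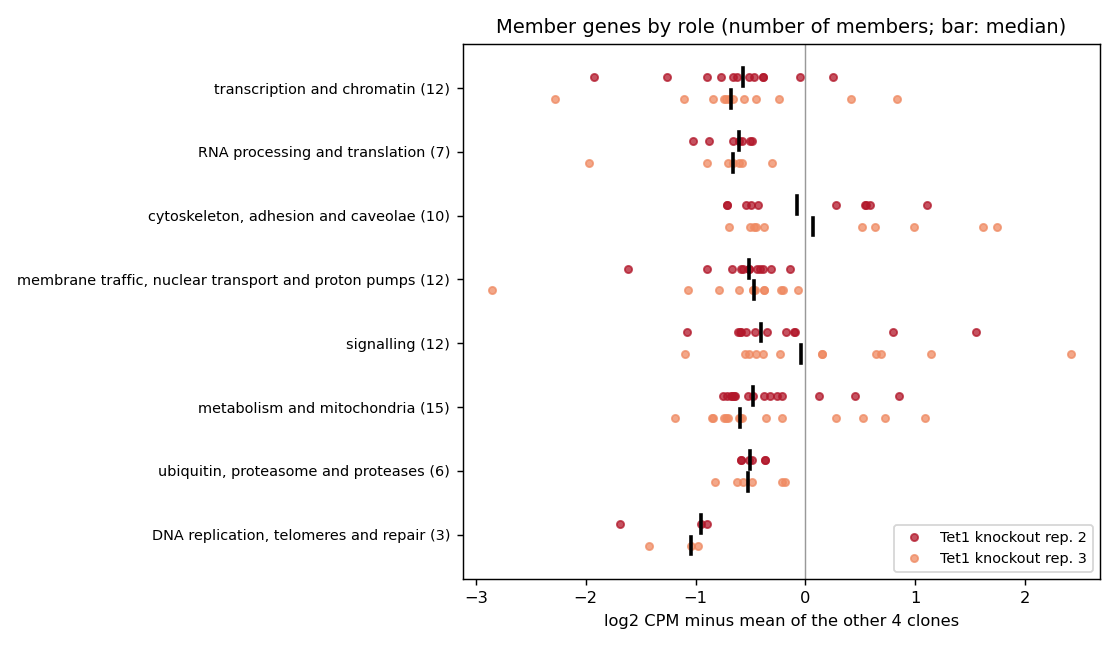
Genes of the stretch by role (rows, with the number of genes), with the difference from the other 4 clones in log2 CPM for knockout replicate 2 (upper points of a row) and knockout replicate 3 (lower points) and the median as a bar. All 7 genes of RNA processing lie left of 0, while the 10 of cytoskeleton, adhesion and caveolae fall on both sides.

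Flnc, the actin cross-linker filamin C, had 152 and 217 CPM for knockout replicates 2 and 3, against 71.5 CPM for knockout replicate 1 and 50.6, 102 and 68.5 CPM for the non-targeted clones. Both knockout clones were above all the others, and non-targeted replicate 2 was the nearest. Cav1, the coat protein of caveolae, had 9.41 and 21.2 CPM for those 2 knockout clones, against 9.11 CPM for knockout replicate 1 and 4.43, 5.85 and 6.24 CPM for the non-targeted clones, with knockout replicate 2 only just above knockout replicate 1. Cald1, caldesmon, which binds actin and tropomyosin, had 101.5 and 166.5 CPM for those 2 knockout clones, against 101.0 CPM for knockout replicate 1 and 63.2, 95.3 and 80.4 CPM for the non-targeted clones. Knockout replicate 2 was scarcely above knockout replicate 1 for Cald1. The differences were 1.10 and 1.61 for Flnc, 0.59 and 1.75 for Cav1 and 0.28 and 0.99 for Cald1, the larger in knockout replicate 3 each time.

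Smo, the transducer of Hedgehog signals, had 75.6 and 96.2 CPM for knockout replicates 2 and 3, against 64.0 CPM for knockout replicate 1 and 32.2, 48.3 and 36.0 CPM for the non-targeted clones. Podxl, a sialomucin of the cell surface, had 95.1 and 100.4 CPM for those 2 knockout clones, against 76.1 CPM for knockout replicate 1 and 52.1, 73.3 and 60.1 CPM for the non-targeted clones. Ptn, the growth factor pleiotrophin, had 4.38 and 8.11 CPM for those 2 knockout clones, against 1.84 CPM for knockout replicate 1 and 0.725, 1.81 and 1.53 CPM for the non-targeted clones, on 250 counts in all. All 3 were highest in the 2 knockout clones and next highest in knockout replicate 1. Pon2, a paraoxonase, had differences of 0.85 and 1.09, Aass, an enzyme of lysine breakdown, of 0.45 and 0.72, and Creb3l2, a transcription factor of the endoplasmic reticulum, of 0.25 and 0.83. The others of the 14 genes above all other clones in both were Gm5874, Lrrc4, Ccdc136, Tspan33 and Lncpint, of which all but Ccdc136 are named after their values were seen. The fibroblast markers were higher in the same direction, with medians of 0.60 in knockout replicate 2, 1.64 in knockout replicate 3 and 0.61 in knockout replicate 1 against the non-targeted clones. DESeq2 called 15 of the 27 markers tested higher in the 3 knockout clones (5.77% of all genes) and 0 lower, edgeR's quasi-likelihood test called 0, and their part in these genes was not tested.

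Some genes were lower than the common shift. Slc25a13, the aspartate and glutamate carrier of mitochondria, had 128 and 115 CPM for knockout replicates 2 and 3, against 277 CPM for knockout replicate 1 and 315, 259 and 253 CPM for the non-targeted clones. Mios, a subunit of a complex that relays amino acid supply to mTORC1, had 30.7 and 30.5 CPM for those 2 knockout clones, against 62.4 CPM for knockout replicate 1 and 71.3, 65.1 and 62.6 CPM for the non-targeted clones. Cep41, a protein of centrosomes and cilia, had 10.7 and 10.5 CPM for those 2 knockout clones, against 18.4 CPM for knockout replicate 1 and 22.2, 25.1 and 25.4 CPM for the non-targeted clones. All 3 were near the same level in the 2 low clones, with differences of -1.10 and -1.25 for Slc25a13, -1.08 and -1.09 for Mios and -1.07 and -1.10 for Cep41. In all, 8 genes had a mean difference of -1 or less over the 2 clones and 13 had one of 0.5 or more.

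Parp12, an interferon-inducible ADP-ribosyltransferase, had 13.4 and 16.1 CPM for knockout replicates 2 and 3, against 48.8 CPM for knockout replicate 1 and 51.4, 32.4 and 43.3 CPM for the non-targeted clones. Zc3hav1, which encodes the zinc-finger antiviral protein, had 62.1 and 29.0 CPM for those 2 knockout clones, against 141 CPM for knockout replicate 1 and 144, 90.4 and 92.3 CPM for the non-targeted clones. Atp6v0a4, a tissue-restricted subunit of the proton pump of acidic compartments, had 7.68 and 3.16 CPM for those 2 knockout clones, against 27.6 CPM for knockout replicate 1 and 24.6, 23.0 and 20.4 CPM for the non-targeted clones. The 2 low clones were below the other 4 for each of these genes. The gap was wide except for knockout replicate 2 in Zc3hav1, at 62.1 CPM against 90.4 CPM in non-targeted replicate 2. The 2 low clones differed from each other for Zc3hav1 and Atp6v0a4, where knockout replicate 3 was much the lower, and little for Parp12. The differences were -1.68 and -1.42 for Parp12, -0.87 and -1.97 for Zc3hav1 and -1.61 and -2.86 for Atp6v0a4, the deepest mean difference among genes of at least 4 CPM.

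Knockout replicates 2 and 3 were close to each other over most of the stretch. The median of knockout replicate 3 minus knockout replicate 2 was 0.04 on the log2 scale, 73 genes differed by less than 0.25 and 19 by more than 0.5, and knockout replicate 3 was the lower for 48. Besides Atp6v0a4, Zc3hav1 and Cav1, the genes that set them apart most at 4 CPM or more were Stra8 and Mdfic. Stra8, which licenses entry into meiosis, had 24.9 and 5.17 CPM for knockout replicates 2 and 3, against 37.0 CPM for knockout replicate 1 and 29.6, 17.6 and 22.7 CPM for the non-targeted clones. Knockout replicate 3 alone was low, and knockout replicate 2 was within the range of the others. Mdfic, which encodes an inhibitor of MyoD-family factors, had 3.06 and 5.96 CPM for those 2 knockout clones, against 5.28 CPM for knockout replicate 1 and 5.24, 5.36 and 2.57 CPM for the non-targeted clones, where knockout replicate 3 was the highest library and knockout replicate 2 the second lowest.

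**Figure D5:**
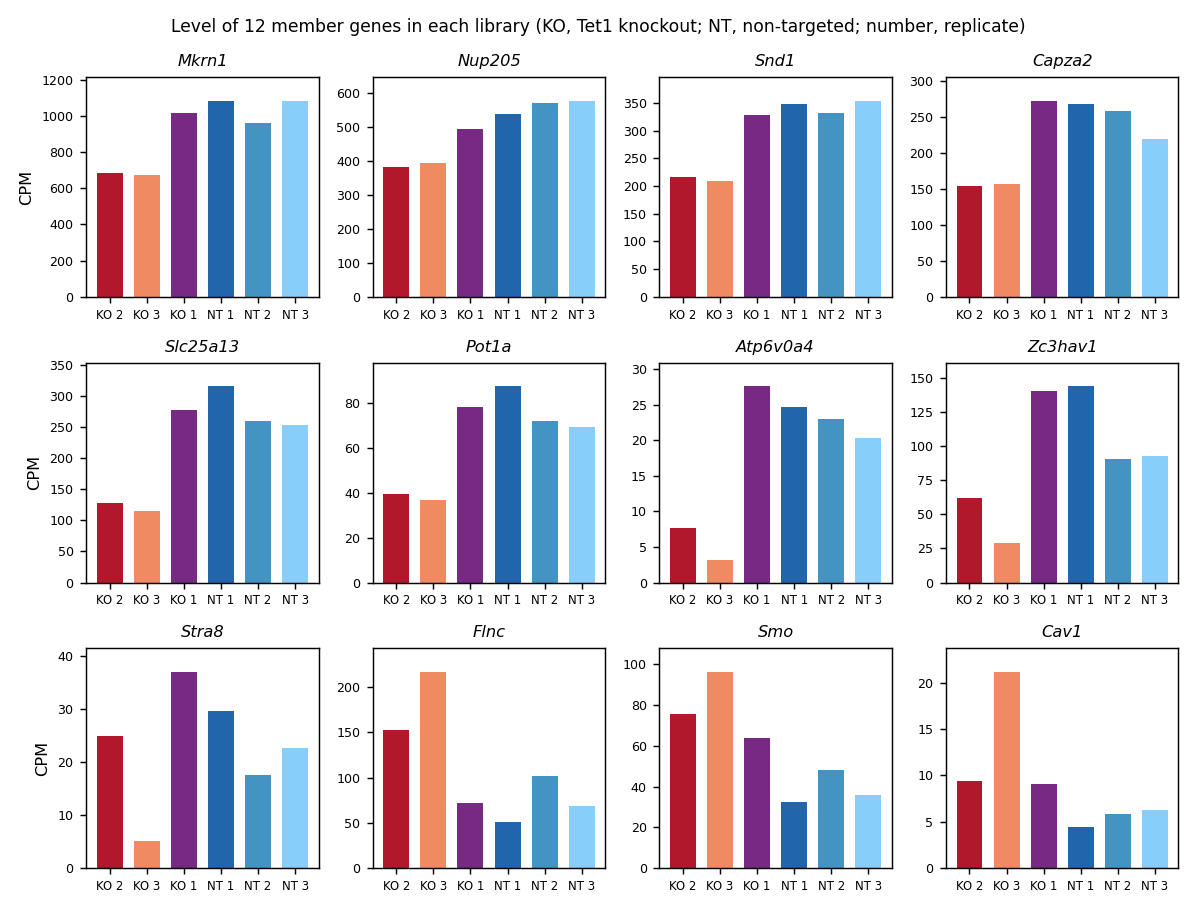
Levels in CPM (bars from 0, 1 bar a clone) of 12 genes of the stretch, for knockout (KO) replicates 2, 3 and 1 and, to their right, non-targeted (NT) replicates 1 to 3. Mkrn1, at 687 and 672 CPM in knockout replicates 2 and 3 and 959 to 1083 CPM in the other 4 clones, shows the common step, and Flnc shows the opposite one.

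Knockout replicate 1 carries the same Tet1 label but did not share the low levels. Its median difference from the 3 non-targeted clones over the 111 genes was 0.05. It lay above all 3 non-targeted clones for 45 genes (29.9% of all genes with 200 counts or more), below all 3 for 27 (31.0% of all genes) and within their range for 39. Its block medians against the remaining 3 clones were 0.17 in the first block and between -0.07 and 0.12 in the other 5.

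The study's own comparison, all 3 knockout clones against the 3 non-targeted clones, asks which genes follow the loss of Tet1. All 3 knockout clones lay below all 3 non-targeted clones for 22 genes of the stretch (15.7% of all genes) and above them for 11 (15.1% of all genes). The median edgeR log2 fold change of the 111 genes was -0.22, against 0.00 over all 14664 genes tested, and it was negative for 82. The median was -0.46 without knockout replicate 1, -0.13 without knockout replicate 2 and -0.14 without knockout replicate 3. With edgeR's quasi-likelihood test and Benjamini-Hochberg adjustment over all genes, 0 of the 111 passed an adjusted p of 0.05, and 0% of all genes did. At an unadjusted edgeR p under 0.05 there were 34 of the 111 genes of the stretch and 3641 of all 14664 genes. With limma voom 0 of the 111 were called, and only 1 of all genes, so nothing is read from that 0 about the stretch. The smallest edgeR adjusted p in the stretch was 0.106.

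DESeq2, run as an alternative on the same counts, called 13 genes of the stretch. It called 6 of them lower in the knockout clones (3.35% of all genes it tested) and 7 higher (5.77% of all genes). Smo averaged 78.6 ± 16.3 CPM over the knockout clones and 38.8 ± 8.38 CPM over the non-targeted ones (SD, n = 3 each), a DESeq2 log2 fold change of 1.01 ± 0.22 (SE) at a DESeq2 adjusted p of 0.000474. Akr1b8, an aldo-keto reductase with related genes beside it with which it may lose shared reads, averaged 25.7 ± 1.34 CPM over the knockout clones and 41.6 ± 6.77 CPM over the non-targeted ones (SD, n = 3 each), a DESeq2 log2 fold change of -0.70 ± 0.17 (SE) at a DESeq2 adjusted p of 0.00241. Knockout replicate 1, at 27.0 CPM, was with the other knockout clones for Akr1b8, and at 64.0 CPM it was between them and the non-targeted clones for Smo. By DESeq2, Cep41, Agk, Vps50 and Nup205 also fell, with log2 fold changes between -0.89 and -0.42, and Ccdc136, Cav1, Dennd2a and Ptn also rose, with values between 0.33 and 1.81. The remaining 3 calls were Exoc4, which fell and is named after its values were seen, and Pon2 and Podxl, which rose. Agk is a lipid kinase of mitochondria, and Dennd2a activates a Rab protein of endosomes. The edgeR adjusted p of all 13 was between 0.106 and 0.142. Each clone left out moved the DESeq2 count, to 64, 4 and 2 without knockout replicates 1, 2 and 3 and to 2, 5 and 1 without non-targeted replicates 1, 2 and 3. The share of all genes called in those fits is not given, so nothing is read from these counts about the stretch.

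Dennd2a had 107 and 109.8 CPM for knockout replicates 2 and 3, against 110.4 CPM for knockout replicate 1 and 81.5, 88.7 and 88.9 CPM for the non-targeted clones. Its 3 knockout clones were together above the 3 non-targeted ones, in a narrow band. Ccdc136, a coiled-coil protein, had 29.3 and 29.8 CPM for those 2 knockout clones, against 27.3 CPM for knockout replicate 1 and 17.3, 21.2 and 20.6 CPM for the non-targeted clones, again with knockout replicate 1 on the side of the other knockout clones. The calls depended on knockout replicate 1. Without it, edgeR's quasi-likelihood test called 57 genes of the stretch lower (14.0% of all genes) and 9 higher (15.1% of all genes). The pair that remains there is the pair the limit was chosen on, and nothing is read from those counts.

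By kind of gene, the 102 protein-coding genes had median differences of -0.51 and -0.47 in knockout replicates 2 and 3, with 69 below the other 4 clones in both and 12 above. The remaining 9 had medians of -0.13 and -0.19. Among these, the 5 processed pseudogenes had medians of -0.08 and -0.14, with 1 below and 1 above, and their reads may be shared with near-identical copies elsewhere, so their levels are uncertain. The antisense gene Gm10244, with 393 counts in all, overlaps the printed Mkrn1 promoter on the other strand. It had 3.30 and 3.01 CPM for knockout replicates 2 and 3, against 5.05 CPM for knockout replicate 1 and 5.07, 3.67 and 8.53 CPM for the non-targeted clones. Its differences were -0.67 and -0.79, but the other 4 clones were widely spread and non-targeted replicate 2 was near the low pair. Gm10244 is named after its values were seen. In the deposited counts a read that overlaps several genes on its strand was left out, and 28 of the 111 genes overlap another gene on the same strand.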

How the data were processed

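Whole-number counts of reads per gene were deposited by the authors, not normalized. The submitters' processing notes name mm10, HISAT2 (2.1.0), DESeq2 (1.18.1) and featureCounts (1.5.3). Per the file headers, counting was done with featureCounts 1.6.2, reverse-stranded, over whole gene bodies with introns, on GENCODE M15 (GRCm38.p5), leaving out reads that map to several places or overlap more than 1 gene. Genes were kept with edgeR's filterByExpr (minimum count 10, minimum total 15), which left 14664, and scaled with TMM. The main test was edgeR's quasi-likelihood test with no covariate, adjusted over all genes by Benjamini-Hochberg. Log2 CPM used a prior count of 2. DESeq2 (1.42.0) and limma voom (3.58.1) were alternatives to edgeR (4.0.16), run in R 4.3.3 and Python 3.11.15. Gene kinds came from GENCODE M21. The genes of the stretch, the role lists and the limit were chosen with earlier results of these data known. The text names the first 3 and last 3 genes, those beyond the limit, the 10 with the most counts, the 8 lowest and 8 highest at 4 CPM or more, the 5 that differ most between knockout replicates 2 and 3, the top 3 of each list by counts, and up to 10 DESeq2 calls. Genes left out of the stretch by name are not reported here.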

Additional observations from a re-analysis of the deposited data

How the results depend on the processing

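The number of genes of the stretch called between knockout and non-targeted clones depended on the tool and on knockout replicate 1. edgeR's quasi-likelihood test called 0, DESeq2 13, and edgeR with no filter on low counts 1 (Smo, of 159 genes called in all). Leaving out each clone in turn gave 0 to 66 calls with edgeR, the 66 without knockout replicate 1. Those 66 were 57 lower and 9 higher, where 14.0% and 15.1% of all genes were called lower and higher. DESeq2 then gave 1 to 64 calls, the 64 again without knockout replicate 1, and the share of all genes in those DESeq2 fits is not given. With a replicate block edgeR called 0. The replicate numbers do not pair the clones, since the correlations of same-numbered clones were 0.458, 0.109 and -0.024 and not every clone correlated best with its own number. The median log2 fold change of the genes was -0.46 without knockout replicate 1 and between -0.46 and -0.13 over the clones left out. The median difference of knockout replicate 3 was -0.58 with a minimum of 1000 counts, an alternative that removes the low-count genes. Leaving out 1 of the other 4 clones kept the medians between -0.51 and -0.47 in knockout replicate 2 and between -0.49 and -0.43 in knockout replicate 3. The count of genes below all other clones in both was 70 to 78 of 111 over the alternatives that kept all genes, 62 of 77 with a minimum of 1000 counts and 69 of 102 for protein-coding genes. The fitted end was at Casp2 under each of the 3 alternatives, on the values that set the limit, so nothing is read from it. At 200 counts over 6 libraries single genes are imprecise.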

Other observations

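Besides the 111 genes, 182 genes of the stretch had between 1 and 199 counts, without the 3 of that range left out by name. Summed, they gave 60.7 and 77.5 CPM for knockout replicates 2 and 3, against 75.7 CPM for knockout replicate 1 and 70.8, 73.3 and 63.3 CPM for the non-targeted clones. Knockout replicate 2 was the lowest of the 6 clones and knockout replicate 3 the highest, so the summed level of these faint genes did not separate the 2 clones from the others.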
